A study of Homo sapiens with 6 samples.

Results

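The 10 genes described here are treated together as AP-1 and EGR immediate early genes. They are FOS, FOSB, FOSL1, FOSL2, JUN, JUNB, JUND, EGR1 and EGR3, together with IER3. They were taken by gene symbol from a table of raw counts for 16934 genes, each symbol matched 1 row, and all 10 passed the filter on low counts that left 13930 genes for testing. Their levels were compared between A375 cells that had received a POLK sgRNA and cells that had received a non-targeting control sgRNA. With the POLK sgRNA, 7 of the 10 fell (FOSB, FOSL1, FOSL2, JUN, EGR1, EGR3 and IER3), none rose, and FOS, JUNB and JUND did not pass the test.

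Immediate early genes are transcribed within minutes of a growth or stress signal, without new protein synthesis. ERK phosphorylates the ELK factors that sit with SRF on their promoters, and JNK and ERK act on the JUN and FOS proteins themselves. AP-1 is a dimer of leucine zipper proteins: FOS proteins do not pair with each other and need a partner, most often a JUN protein, while JUN proteins can also pair among themselves. FOS and JUN dimers bind TGANTCA with C or G at N, and both families also pair with some other leucine zipper factors. The EGR proteins are zinc finger factors that bind GC-rich sites, and the NAB proteins repress them. In melanoma cells with mutant BRAF, constant ERK signalling keeps several of these genes transcribed, and FOSL1 is well known as one of them.

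A375 is an established human melanoma line with an activating BRAF mutation. Both groups underwent CRISPR-Cas9 editing (Alt-R reagents), and they differ in the sgRNA, which is non-targeting in the control group and directed at POLK, the gene for the error-prone DNA polymerase kappa, in the other. Each group holds 3 libraries, and nothing in the labels says that these came from separate cultures or separate edits, or whether the cells were a pool or a clone. The p-values therefore set the difference against the spread between these libraries only, which may be technical, and any difference between the 2 cell populations other than POLK editing cannot be told apart from it.

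Total counts ran from 42852645 to 56891905 per library, and the members held between 299 and 14820 counts in a library. POLK itself was at 23.4, 24.0 and 22.4 CPM (counts scaled to library size, per 1000000) in control libraries 1, 2 and 3 and at 19.2, 17.2 and 18.1 CPM with the POLK sgRNA. The groups did not overlap, and POLK stood at 78.1% of its control level (log2 fold change −0.36, SE 0.05, edgeR adjusted p = 7.9e-08; here and below from the quasi-likelihood test, adjusted over all genes by Benjamini-Hochberg). The 12 melanoma markers summed to 2096 to 2111 CPM in control and 2353 to 2420 CPM in POLK sgRNA libraries. Of 11 tested, 6 rose, 2 fell (TFAP2A to 75.1% and PRAME to 93.3% of control) and 3 did not pass. SOX10 rose from 1060.1 ± 12.5 to 1155 ± 28.99 CPM (SD, n = 3) and S100A1 rose 3.04-fold, while the pigment genes PMEL, MLANA, DCT and TYR were each under 1 CPM on average in both groups. The 5 leukocyte markers in the table summed to 3.62 to 4.08 CPM in control and 19.1 to 21.0 CPM in POLK sgRNA libraries; nearly all of this was LYZ, CD14 fell to 26.6% of control, and PTPRC, which defines the type, was at 0.0269 and 0.0311 CPM on average. Sums for 6 fibroblast markers (8.79 to 11.2 against 12.5 to 13.7 CPM), 4 endothelial markers (2.93 to 3.90 against 5.57 to 6.04 CPM) and the 4 keratinocyte markers in the table (82.5 to 86.4 against 99.8 to 104 CPM, mostly KRT10) were also higher with the POLK sgRNA. Their members did not all move with the sums. Among the fibroblast markers LUM and DCN rose 10.5-fold and 12.2-fold from under 1 CPM, while PDGFRA fell to 58.0% and COL1A2 to 48.0% of control. Of the endothelial markers 3 rose, and CDH5 fell from 0.361 to 0.0343 CPM. The part of these markers in the results was not tested.

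Promoter windows are shown because some of the members, which lie on several chromosomes, share short elements near their starts. RefSeq promoter sequences (GRCh38.p14) were found for 7 of the 10 members. The last 110 bases before the transcription start, written 5′ to 3′ on the gene's strand, are given here with matches to the searched motifs in capitals. Starts are those of RefSeq; GENCODE 29 puts the first base of FOS, FOSL2 and JUN farther upstream, so for these genes the printed bases lie partly or wholly inside its gene model.
FOS (chr14:75278718-75278827, plus strand): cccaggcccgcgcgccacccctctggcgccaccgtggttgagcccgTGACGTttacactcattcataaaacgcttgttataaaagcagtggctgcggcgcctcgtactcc
FOSB (chr19:45467886-45467995, plus strand): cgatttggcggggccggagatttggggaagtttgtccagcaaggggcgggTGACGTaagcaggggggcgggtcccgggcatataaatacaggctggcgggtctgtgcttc
FOSL2 (chr2:28392748-28392857, plus strand): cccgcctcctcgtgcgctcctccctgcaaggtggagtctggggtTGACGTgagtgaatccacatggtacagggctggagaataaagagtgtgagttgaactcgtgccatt
JUN (chr1:58784048-58784157, minus strand): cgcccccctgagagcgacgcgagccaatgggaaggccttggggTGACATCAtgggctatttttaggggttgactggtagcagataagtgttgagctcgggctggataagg
JUNB (chr19:12791376-12791485, plus strand): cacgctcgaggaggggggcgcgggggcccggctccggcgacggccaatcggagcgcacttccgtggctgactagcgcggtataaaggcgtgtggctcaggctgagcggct
JUND (chr19:18281623-18281732, minus strand): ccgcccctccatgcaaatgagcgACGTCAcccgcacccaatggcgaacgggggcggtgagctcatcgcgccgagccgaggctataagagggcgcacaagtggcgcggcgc
EGR1 (chr5:138465369-138465478, plus strand): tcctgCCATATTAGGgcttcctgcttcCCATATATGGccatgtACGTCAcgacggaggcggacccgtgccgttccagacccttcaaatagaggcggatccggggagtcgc

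Motifs were searched on both strands over the 250 bases before each start. They included TGACGT (the first bases of the cyclic AMP response element) and the whole element TGACGTCA (which contains TGACGT on either strand). The others were TGACATCA, TGANTCA, the EGR element GCGNGGGCG and the CArG box bound by SRF. TGANTCA was searched with any base at N, so it covers the AP-1 element and is wider than it. The 7 member windows held from 62.0% (JUN) to 74.8% (JUND) G and C, beside a median of 58.0% over all promoters. The shares of all promoters given here were not matched for this base content. TGACGT was present in 5 of the 7 members (FOS, FOSB, FOSL2, JUND and EGR1) and in 7.10% of 35116 promoters. In FOS, FOSB and FOSL2 it began 64, 60 and 66 bases before the start, and in EGR1 one of its matches, ACGTCA on the printed strand, began 67 bases before it. JUN had TGACATCA, the AP-1 element described in its own promoter, from 67 to 60 bases before its start (2.37% of all promoters hold this word). JUND also held the whole TGACGTCA from 200 to 193 bases before the start (1.65% of all promoters). CArG boxes were found in the EGR1 window alone, at 105 to 96 and 83 to 74 bases before the start (1.16% of all promoters). This window also held GCGNGGGCG once (8.41%). Bases farther upstream, and members without a promoter sequence, were not searched. TGANTCA was in none of the 7 windows (6.57% of all promoters), which says only that these letters are not in this stretch. Members that fell and members that did not pass both carried TGACGT, and a match is a description of the sequence, not evidence of binding.

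Over all genes tested, 64.3% passed at an adjusted p under 0.05, 32.8% higher and 31.6% lower, so a call on its own is common in these data. Against that background 7 of 10 members fell (31.6% of all tested genes were lower) and 0 of 10 rose (32.8% were higher). The members were chosen with earlier results of these data known, so their contrast with all genes is a description and was not tested. The median log2 fold change of the members was −0.43, beside 0.01 for all genes tested. In RNA from whole cultures, fewer cells that express a gene and less of its RNA per cell cannot be told apart. The 2 groups did not overlap in 8 of the 10 members, all with the POLK sgRNA lower, beside 67.7% of all genes (33.1% lower and 34.6% higher). Tested with edgeR's glmTreat against a minimum log2 fold change of 0.32, 6 members passed, all lower (FOSB, FOSL2, JUN, EGR1, EGR3 and IER3), where 20.7% of all genes passed, 8.79% lower and 11.9% higher.

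**Figure D1:**
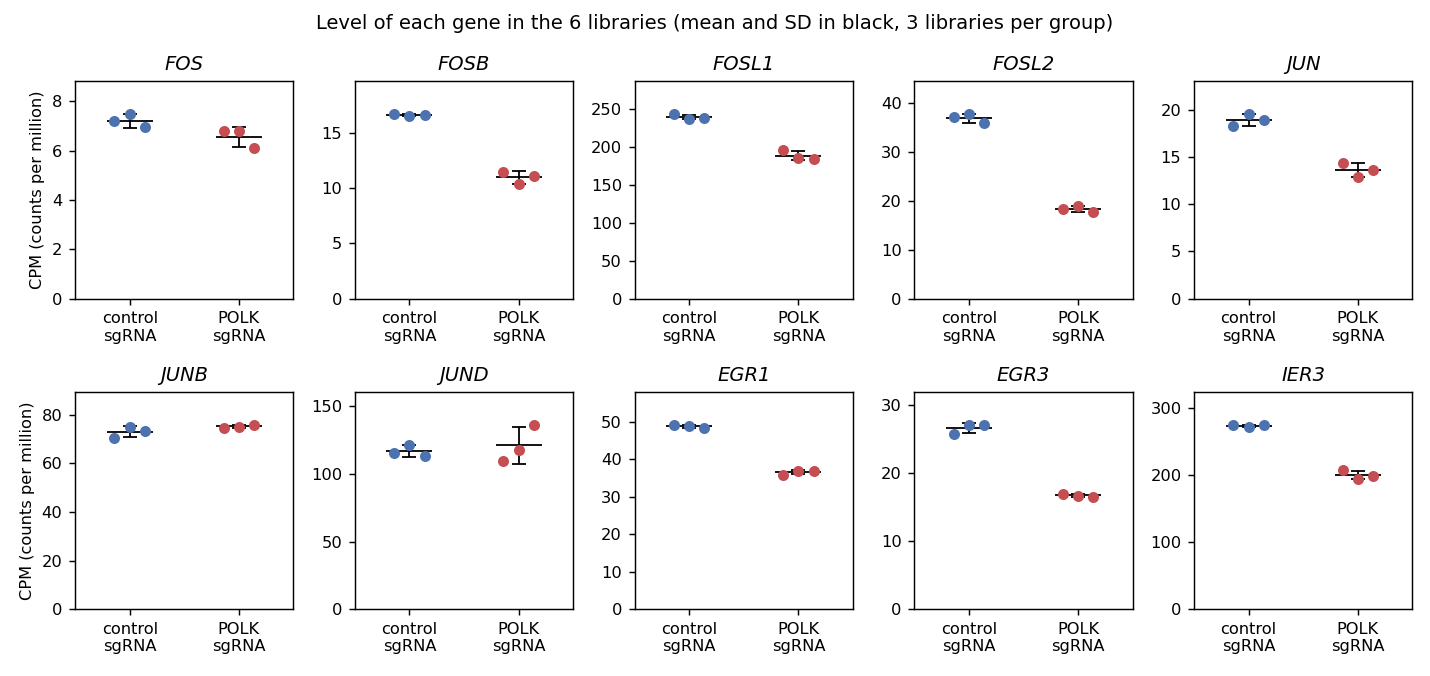
CPM (vertical axis, from 0) of each of the 10 genes in the 3 control sgRNA libraries (blue) and the 3 POLK sgRNA libraries (red), with the mean and SD in black. The POLK sgRNA libraries lie below every control library for all genes except JUNB and JUND, and FOSL2 has the lowest level relative to control, 49.6%.

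Among the FOS genes, FOSL2 fell furthest, and FOSB and FOSL1 fell as well. FOSL2 (ENSG00000075426, chromosome 2, 28392448 to 28417312 on the plus strand, GRCh38) encodes FRA-2, a FOS protein without the strong activation domain of FOS. It was at 37.2, 37.7 and 35.9 CPM in control libraries 1, 2 and 3 and at 18.3, 18.9 and 17.7 CPM in POLK sgRNA libraries 1, 2 and 3. All POLK sgRNA libraries were far below all controls, with little scatter in either group. The means of 36.9 ± 0.917 and 18.3 ± 0.577 CPM (SD, n = 3) gave a log2 fold change of −1.01 (SE 0.04, edgeR adjusted p = 9.2e-21), and 93.3% of all genes tested had a smaller absolute change.

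FOSB (ENSG00000125740, chromosome 19, 45467995 to 45475179, plus strand) encodes a FOS protein whose short splice form, delta-FosB, is unusually stable; counts per gene do not separate the forms. Its control libraries were almost equal at 16.7, 16.6 and 16.6 CPM, and its POLK sgRNA libraries stood at 11.5, 10.4 and 11.1 CPM. The groups were well apart, and FOSB fell to 66.4% of control (log2 fold change −0.59, SE 0.05, edgeR adjusted p = 2.2e-11).

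FOSL1 (ENSG00000175592, chromosome 11, 65892049 to 65900573, minus strand) encodes FRA-1, an ERK-dependent AP-1 subunit tied to invasive and dedifferentiated melanoma. It had 243, 237 and 238 CPM with the control sgRNA and 195, 186 and 184 CPM with the POLK sgRNA. Every POLK sgRNA library was below every control, and the level fell to 78.7% of control (log2 fold change −0.35, SE 0.02, edgeR adjusted p = 3.3e-14). FOSL1 did not pass glmTreat at that minimum (edgeR adjusted p = 0.25).

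FOS (ENSG00000170345, chromosome 14, 75278774 to 75282230, plus strand), the founding member and the one whose transcript is made and lost fastest, was at 7.19, 7.47 and 6.93 CPM in control libraries and 6.77, 6.77 and 6.10 CPM in POLK sgRNA libraries. The groups did not overlap, but the gap between them was small beside the scatter. FOS did not pass, at 91.0% of control with a 95% interval of 82.0 to 101% (log2 fold change −0.14, SE 0.07, edgeR adjusted p = 0.11).

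Of the JUN genes, JUN fell, while JUNB and JUND did not pass and were each measured at 103% of control. JUN (ENSG00000177606, chromosome 1, 58780788 to 58784327, minus strand, a single exon) encodes c-Jun, the main target of JNK. It was at 18.3, 19.5 and 18.8 CPM with the control sgRNA and at 14.3, 12.9 and 13.7 CPM with the POLK sgRNA. No POLK sgRNA library reached the lowest control, and JUN fell to 72.2% of control (log2 fold change −0.47, SE 0.05, edgeR adjusted p = 1.3e-09).

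JUNB (ENSG00000171223, chromosome 19, 12791496 to 12793315, plus strand, a single exon) encodes a JUN protein that often opposes c-Jun in growth control. Its values were 70.6, 75.1 and 73.5 CPM in control and 74.7, 75.1 and 75.8 CPM in POLK sgRNA libraries, and the groups overlapped. It stood at 103% of control with a 95% interval of 98.7 to 107% (log2 fold change 0.04, SE 0.03, edgeR adjusted p = 0.22). HOOK2, which runs on the other strand, shares 14.2% of the exon bases of JUNB, and with a kit that does not mark strand their reads cannot be told apart there.

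JUND (ENSG00000130522, chromosome 19, 18279760 to 18281622, minus strand, a single exon) encodes a JUN protein that many resting cells express steadily. It had 116, 122 and 113 CPM with the control sgRNA and 109, 118 and 136 CPM with the POLK sgRNA. POLK sgRNA library 1 was below every control and library 3 above every control, the widest scatter of any member (coefficient of variation 11.4%). JUND stood at 103% of control with a 95% interval of 86.4 to 124% (log2 fold change 0.05, SE 0.10, edgeR adjusted p = 0.70), and without POLK sgRNA library 3 the log2 fold change was −0.044.

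Because a ratio of 2 genes in a library does not depend on how the library was scaled, 6 ratios were formed between members, from CPM without regard to length and only to compare the groups. JUN stood at 0.258 ± 0.00176 of JUNB (CPM over CPM; SD, n = 3) in control libraries and at 0.181 ± 0.00992 in POLK sgRNA libraries, and at 0.161 ± 0.00440 and 0.113 ± 0.0157 of JUND. FOSL2 stood at 0.154 ± 0.00445 and 0.0973 ± 0.00413 of FOSL1. The FOSB to FOS ratio was 2.31 ± 0.0880 and 1.68 ± 0.148, that of JUN to FOS 2.62 ± 0.0885 and 2.08 ± 0.169, and that of EGR3 to EGR1 0.547 ± 0.0201 and 0.459 ± 0.0137. In each of the 6 the groups did not overlap. A two-sided exact permutation test gave p = 0.10 for each, before and after adjustment over the 6. This is the smallest p that 3 against 3 libraries allow. In each pair the gene named first stood lower relative to control than its partner. The ratios therefore follow from the fold changes of the single genes and are no separate support.

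Both EGR genes fell, and EGR3 stood lower relative to control than EGR1. EGR1 (ENSG00000120738, chromosome 5, 138465490 to 138469315, plus strand) encodes a zinc finger factor that SRF and the ELK proteins switch on through CArG boxes such as those printed above. It was at 49.2, 48.8 and 48.3 CPM in control libraries and at 35.9, 36.8 and 36.9 CPM in POLK sgRNA libraries. The libraries of each group lay within about 1 CPM of each other, and EGR1 fell to 74.9% of control (log2 fold change −0.42, SE 0.03, edgeR adjusted p = 8.8e-13).

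EGR3 (ENSG00000179388, chromosome 8, 22687659 to 22693302, minus strand) encodes a related factor that EGR1 can induce. It had 25.8, 27.1 and 27.1 CPM with the control sgRNA and 17.0, 16.6 and 16.6 CPM with the POLK sgRNA. The groups were far apart, and EGR3 fell to 62.8% of control (log2 fold change −0.67, SE 0.04, edgeR adjusted p = 4.7e-15). The other EGR genes were close to undetected and did not pass: EGR2 averaged 0.293 and 0.173 CPM and EGR4 0.343 and 0.458 CPM. EGR2 passed, as lower, without POLK sgRNA library 1 (edgeR adjusted p = 0.042).

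IER3 (ENSG00000137331, chromosome 6, 30743199 to 30744554, minus strand) encodes a small protein that ERK phosphorylates and that limits cell death. It was at 274, 271 and 274 CPM in control and 207, 195 and 198 CPM in POLK sgRNA libraries. Every POLK sgRNA library was below every control, and IER3 fell to 73.2% of control (log2 fold change −0.45, SE 0.02, edgeR adjusted p = 1.5e-17). IER3-AS1, on the other strand, covers 26.5% of its exon bases, and its reads there cannot be told apart from those of IER3.

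Levels of different genes were compared per length, as CPM per kilobase of merged exons in GENCODE 29, which understates genes with long exons that these cells do not use. In control libraries IER3 (202 ± 1.3 CPM per kilobase; SD, n = 3) and FOSL1 (127 ± 1.72) were highest, followed by JUND (62.8 ± 2.28), JUNB (40.1 ± 1.26) and EGR1 (15.5 ± 0.139). EGR3 (5.49 ± 0.161), JUN (5.33 ± 0.173) and FOSL2 (5.16 ± 0.128) came next, and each of these overlapped its neighbour in the order. FOSB (2.99 ± 0.0130) and FOS (2.22 ± 0.0829) were lowest. With the POLK sgRNA the first 5 kept their order. JUN (3.85 ± 0.200) then stood above EGR3 (3.45 ± 0.0520) and FOSL2 (2.56 ± 0.0806), and FOS (2.02 ± 0.120) and FOSB (1.98 ± 0.105) overlapped.

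**Figure D2:**
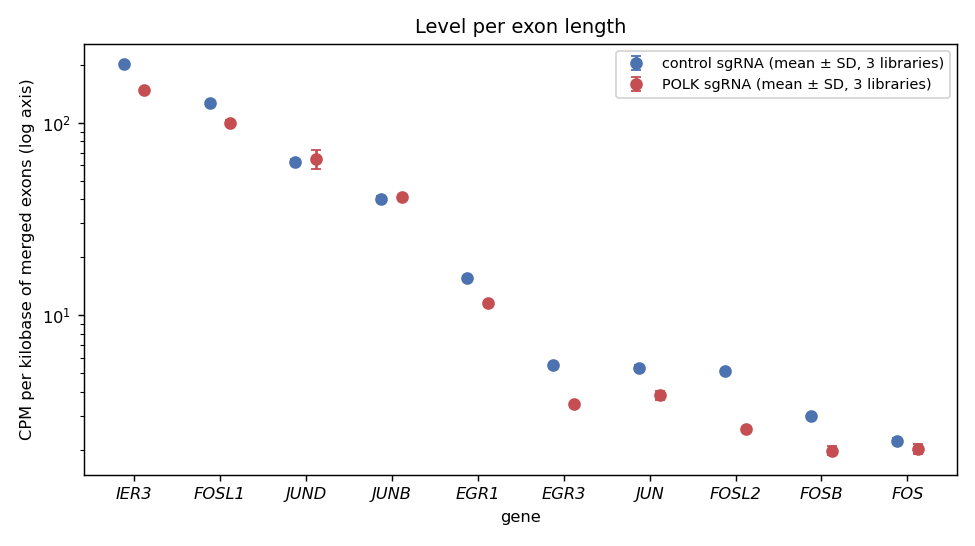
CPM per kilobase of merged exons (vertical log axis) for each gene, as the mean and SD of 3 libraries, with control sgRNA in blue and POLK sgRNA in red. Levels span from 202 for IER3 to 2.22 for FOS in control libraries, and the 2 groups lie closest for JUND, JUNB and FOS.

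FOSL1 made up most of the FOS family transcript by this measure. It took 92.4 ± 0.176% (SD, n = 3) of the summed CPM per kilobase of the 4 FOS genes in control and 93.8 ± 0.101% in POLK sgRNA libraries, while the share of FOSL2 was 3.76 ± 0.101% and 2.41 ± 0.0996%. The sum itself was 137 ± 1.72 and 106 ± 3.42 CPM per kilobase. In the JUN family JUND took 58.0 ± 0.792% and 58.9 ± 2.57% and JUN 4.93 ± 0.0670% and 3.50 ± 0.341%. The sum of the 3 JUN genes was 108 ± 3.30 and 110.2 ± 7.65 CPM per kilobase, and the 2 groups overlapped.

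Whole stretches of some chromosomes differ between these 2 groups, so each member was set beside the 20 nearest tested genes on either side. For 8 members the median of these 40 neighbours lay between −0.06 and 0.06 on the log2 scale, among them FOSB (−0.05), FOSL1 (0.02), JUN (−0.002), EGR1 (−0.05), EGR3 (−0.05) and IER3 (0.03), which fell. By this median FOSL2 was the exception among the genes that fell: its neighbours had a median of −0.19, and 28 of the 40 were called lower. FOSL2 was still 0.82 below that median on the log2 scale, and 1 of its 40 neighbours was at or below it. The neighbours of EGR3 also leaned lower, with 16 of the 40 called lower and 5 higher. These counts were 17 and 12 for FOSB and 16 and 10 for EGR1. For FOSL1, JUN and IER3 more neighbours were called higher than lower. The neighbours of JUNB had a median of 0.17, and JUNB lay 0.12 below it. Of the 40 neighbours, 1 was at or below FOSB, EGR1 and IER3 in each case, 2 were at or below JUN, and 3 at or below FOSL1 and EGR3.

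**Figure D3:**
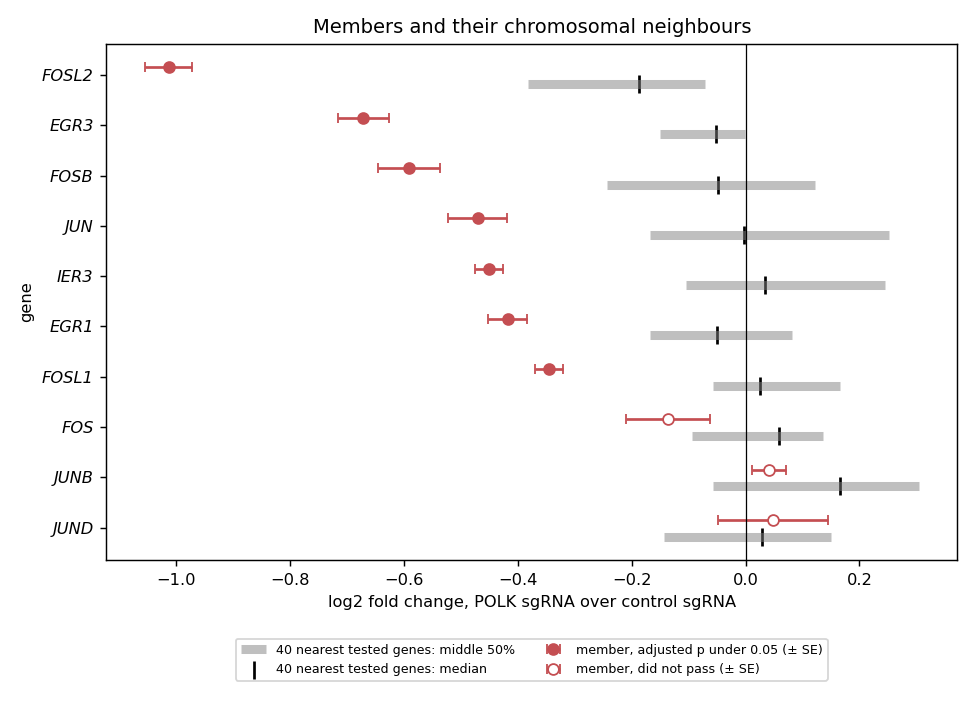
Log2 fold change (horizontal axis, POLK sgRNA over control sgRNA) of each member with its SE (red; filled where the adjusted p was under 0.05), above the median (black tick) and middle 50% (grey bar) of its 40 nearest tested genes. The 7 filled points lie left of the grey bars, from −1.01 for FOSL2 to −0.35 for FOSL1, and the neighbours of FOSL2 have the lowest median, −0.19.

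Other immediate early genes, which answer the same signals, moved in both directions, the larger count lower. Of 32 tested, 16 fell, 7 rose and 9 did not pass, with a median log2 fold change of −0.17, beside 31.6% lower and 32.8% higher over all genes. Those that fell included ZFP36L2, an RNA-binding protein that speeds mRNA decay (229 ± 12.8 to 125 ± 2.83 CPM; SD, n = 3), and CCN1, a secreted matrix protein (70.3 ± 1.38 to 51.3 ± 1.22 CPM). The neighbours of ZFP36L2 on chromosome 2 had a median log2 fold change of −0.17. NR4A1, an orphan nuclear receptor, rose from 90.7 ± 1.79 to 116 ± 1.81 CPM. It lies on chromosome 12 among neighbours with a median of 0.55, above its own log2 fold change of 0.36. ZFP36L1, a relative of ZFP36L2, rose from 91.9 ± 1.66 to 113 ± 1.99 CPM, and the transcription factor KLF4 from 14.2 ± 0.891 to 18.2 ± 1.35 CPM. Against a minimum log2 fold change of 0.32, 5 of the 32 were lower and 0 higher, beside 8.79% and 11.9% of all genes.

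Among other leucine zipper factors, several of which pair with FOS or JUN proteins, the larger count was of genes that rose. Of 14 tested, 9 rose, 1 fell and 4 did not pass, with a median log2 fold change of 0.33. Over all genes 32.8% were higher and 31.6% lower, and the difference of the list from all genes was not tested. ATF7 rose from 13.1 ± 1.20 to 20.4 ± 0.759 CPM (SD, n = 3), ATF1 from 21.0 ± 0.608 to 30.6 ± 1.53 CPM and MAFK, a small MAF protein, from 29.4 ± 0.512 to 39.3 ± 3.15 CPM. CREB5, which binds cyclic AMP response elements, fell from 5.32 ± 0.304 to 4.29 ± 0.446 CPM. ATF1 and ATF7 lie on chromosome 12, where 80.5% of 663 tested genes were higher, and their neighbours had medians of 0.50 and 0.57. The 12 factors on other chromosomes had a median of 0.20, and 7 of them rose. Against a minimum log2 fold change of 0.32, 4 of the 14 were higher and 0 lower, beside 11.9% and 8.79% of all genes.

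Of EGR2, EGR4 and the NAB genes, both NAB genes rose and the other two did not pass. Of 6 genes for SRF, its ELK partners and the actin-controlled MRTF coactivators, 1 rose, 1 fell and 4 did not pass, where 64.3% of all genes passed. NAB2, a corepressor that EGR1 induces and that represses EGR1 in turn, rose from 86.4 ± 1.63 to 118 ± 0.602 CPM (SD, n = 3), and NAB1 from 24.4 ± 1.15 to 26.8 ± 0.595 CPM. NAB2 lies on chromosome 12 among neighbours with a median of 0.63, above its own log2 fold change of 0.45, and NAB1 did not pass without control library 2 (edgeR adjusted p = 0.087). SRF itself stood at 69.6 and 72.9 CPM and did not pass (edgeR adjusted p = 0.056), though it passed without control library 2 (0.039) or POLK sgRNA library 1 (0.045), with library size alone (0.021) and with no filter (0.043). ELK3 rose from 92.0 ± 2.50 to 112 ± 2.71 CPM and lies on chromosome 12 (median of its neighbours 0.57). MRTFB fell from 27.0 ± 0.234 to 24.997 ± 0.631 CPM, and it did not pass in DESeq2 (adjusted p = 0.060). In edgeR it also missed the threshold when control library 2 was dropped (adjusted p = 0.054) and when library 3 of the POLK sgRNA group was (adjusted p = 0.088).

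The 12 kinase genes tested encode JNK, p38 and ERK kinases, the JNK activators MAP2K4 and MAP2K7, and the RSK kinases downstream of ERK. Of the 12, 5 rose, 1 fell and 6 did not pass, with a median log2 fold change of 0.06. Over all genes 64.3% passed, beside 6 of 12 here, and this difference was not tested. MAPK3, which encodes ERK1, rose from 60.6 ± 0.982 to 70.2 ± 1.12 CPM (SD, n = 3). Of the RSK genes, RPS6KA2 rose from 24.5 ± 1.32 to 28.9 ± 1.23 CPM, and RPS6KA1 changed less, from 87.8 ± 0.499 to 93.9 ± 0.492 CPM. MAPK8, which encodes JNK1, was the one that fell, from 23.8 ± 0.196 to 19.6 ± 0.549 CPM. All of these changes were smaller than 0.32 on the log2 scale, and transcript levels do not report kinase activity.

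Genes known as AP-1 targets moved in both directions. Of 23 tested, 12 rose, 8 fell and 3 did not pass, with a median log2 fold change of 0.11. Over all genes 32.8% were higher and 31.6% lower. The 8 of 23 that fell were near that background and the 12 of 23 that rose were above it, which was not tested. KRT18, a keratin gene with an AP-1 enhancer, rose from 82.9 ± 1.59 to 127 ± 3.22 CPM (SD, n = 3), the matrix protease MMP14 from 104 ± 3.77 to 152 ± 5.32 CPM and the protease inhibitor TIMP1 from 205 ± 7.01 to 276 ± 4.38 CPM. KRT18 lies on chromosome 12 among neighbours with a median of 0.54. Cyclin D1 (CCND1) fell from 425 ± 5.37 to 314 ± 4.97 CPM, and the cytokine genes LIF and IL11 fell from 60.3 ± 1.23 to 46.5 ± 0.894 CPM and from 18.2 ± 1.16 to 12.04 ± 0.847 CPM. Of the classic AP-1 targets among the proteases, MMP3, MMP9, MMP10 and MMP13 had too few counts to test, and MMP1 rose from a low level, 0.935 to 1.92 CPM. Against a minimum log2 fold change of 0.32, 6 of the 23 were higher and 2 lower, beside 11.9% and 8.79% of all genes.

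Genes known as EGR1 targets also moved in both directions. Of 13 tested, 6 fell, 3 rose and 4 did not pass, with a median log2 fold change of −0.05, beside 31.6% lower and 32.8% higher over all genes. THBS1, which encodes the matrix protein thrombospondin-1, fell from 413 ± 4.59 to 251 ± 23.6 CPM (SD, n = 3), TGFB1 from 128 ± 3.51 to 109.9 ± 1.05 CPM and the growth factor gene PDGFA from 2.56 ± 0.157 to 1.79 ± 0.0816 CPM. Tissue factor (F3) rose from 1.88 ± 0.0702 to 2.68 ± 0.376 CPM, CD44, an adhesion receptor listed for AP-1 as well, from 401 ± 5.13 to 425 ± 7.74 CPM, and NAB2 as given above. Against a minimum log2 fold change of 0.32, 1 of the 13 was lower and 1 higher, beside 8.79% and 11.9% of all genes.

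**Figure D4:**
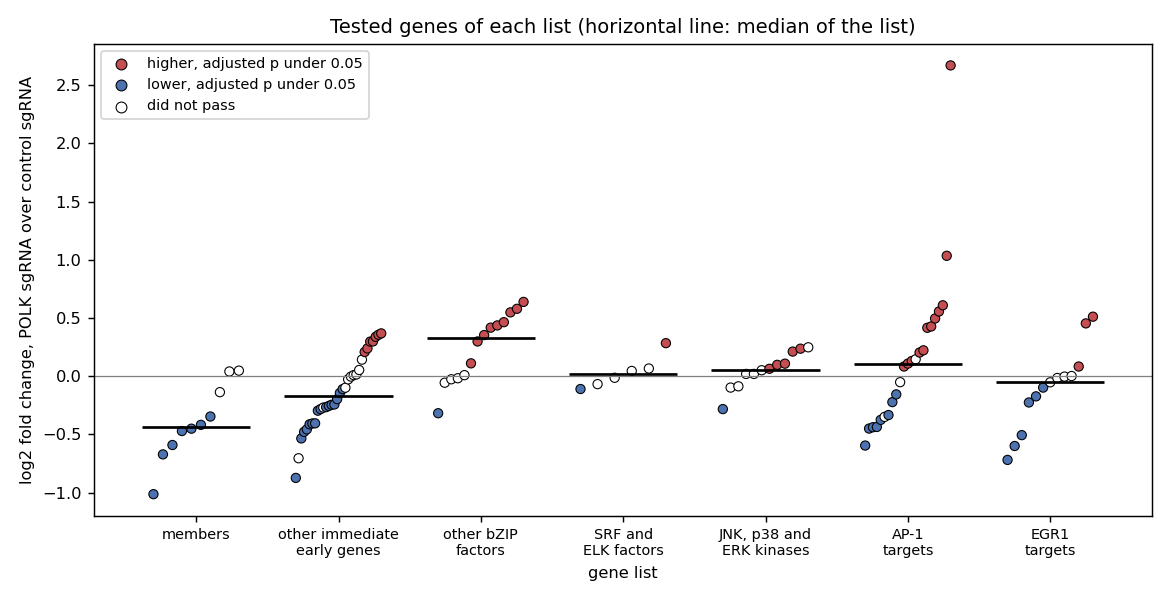
Log2 fold change (vertical axis, POLK sgRNA over control sgRNA) of every tested gene in each list, red where higher and blue where lower at an adjusted p under 0.05, white where the gene did not pass, with the list's median as a line. The medians run from −0.43 for the members and −0.17 for other immediate early genes to 0.33 for the other leucine zipper (bZIP) factors.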

How the data were processed

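RNA from 6 libraries of A375 cells, 3 per group, was sequenced after preparation with the TruSeq RNA V2 kit, per the labels' protocols. The submitters' processing notes name FastQC, Trimmomatic, STAR, DESeq2 and the build GRCh38; for the counting tool, annotation, versions and filters, nothing is given in the sources used here. Raw counts per gene, not normalized, are what the authors deposited. Columns were matched to samples by name. Of 16934 genes, 13930 (82.3%) passed edgeR's filterByExpr (minimum count 10, minimum total 15). Groups were compared in R 4.3.3 with edgeR 4.0.16 (TMM scaling, robust quasi-likelihood F test, two-sided, no covariates) and Benjamini-Hochberg adjustment over all tested genes at 0.05. The SE was derived from the log2 fold change and its F statistic, and intervals are 95%. CPM uses TMM-scaled library sizes. The test was checked on simulated counts with the spread of these libraries and far fewer changed genes than were called here. So broad a shift was therefore not checked. The test recovered 40% of 50 genes changed 1.1-fold, 86% of 50 changed 1.25-fold and 100% of 50 changed 2-fold.

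Positions and exon lengths came from GENCODE 29 (13923 tested genes matched); neighbours had a mean of at least 1 CPM. Promoters came from RefSeq (GRCh38.p14). Members and lists were chosen with earlier results of these data known. Named genes were the members, POLK and, per list, the 3 genes with the smallest p in each direction with a mean of at least 1 CPM; 1 gene that this rule names is not reported here, and EGR2, EGR4, SRF, the MMP genes beside MMP14 and the genes under other observations were chosen after their values were seen. MRTFB and CCN1 matched under current or older symbols. Alternatives were DESeq2 size factors, library size alone, no filter, a mean CPM of 1, the replicate block, DESeq2 1.42.0, limma-voom (limma 3.58.1), glmTreat (minimum log2 fold change 0.32) and each library left out.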

Additional observations from a re-analysis of the deposited data

How the results depend on the processing

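The 7 members that fell kept their direction and passed in all 14 alternatives, except FOSL1 with glmTreat against a minimum log2 fold change of 0.32 (adjusted p = 0.25). The count of members lower was 7 and of members higher 0 with every library left out in turn. FOS did not pass in any of the 14 (adjusted p from 0.080 to 1), nor did JUNB (0.087 to 1) or JUND (0.22 to 1). JUND changed sign without POLK sgRNA library 3 (log2 fold change −0.044) and stood at 0.120 without POLK sgRNA library 1. With glmTreat the calls over all genes were 1653 higher and 1224 lower, against 4566 and 4396, and POLK no longer passed (log2 fold change −0.36, adjusted p = 0.36). In the same test the other leucine zipper factors numbered 4 higher and 0 lower, the EGR and NAB genes 1 higher, SRF, ELK and MRTF genes 0 and 0, other immediate early genes 0 and 5, kinases 0 and 0, AP-1 targets 6 and 2 and EGR1 targets 1 and 1. Beside this, list counts moved by over 1.5 times only in 3 small lists, each by 1 gene: SRF, ELK and MRTF genes numbered 2 higher with library size alone or no filter and 0 lower in DESeq2, and 2 kinases were lower with DESeq2 size factors; on leaving out single libraries the EGR and NAB genes numbered 1 to 2 higher and 0 to 1 lower, SRF, ELK and MRTF genes 1 to 2 higher and 0 to 2 lower, and kinases 1 to 2 lower. Of 599 fold changes of 43 named genes of other lists under alternatives, 26 lost the call, 5 gained it (SRF and EGR2) and 0 reversed. Same-numbered libraries of the 2 groups did not deviate together (correlations −0.01, −0.04 and 0.01), so the numbers were not taken as pairs. With the replicate block 4483 genes were higher and 4290 lower, with 7 members lower and 0 higher, and log2 fold changes of −1.01 for FOSL2 and −0.36 for POLK. Leaving out each library gave 4181 to 4441 genes higher and 4091 to 4286 lower. The scaling alternatives moved the median of all genes by under 0.1 on the log2 scale. The low levels of EGR2 and EGR4 limit what can be said of them.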

Other observations

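Several genes of the lists fell outside the rule for named genes and were chosen after their values were seen. Among the other immediate early genes, IER2, a nuclear protein gene induced alongside IER3, fell from 195 ± 0.778 to 164 ± 2.83 CPM (SD, n = 3). IER5, a regulator of the heat shock factor, fell from 77.4 ± 3.28 to 58.5 ± 4.03 CPM, and SOCS3, an inhibitor of cytokine signalling, from 27.1 ± 2.28 to 20.4 ± 0.671 CPM. CCN2, the matrix protein gene related to CCN1, fell from 36.2 ± 0.907 to 27.3 ± 0.736 CPM, so both of these CCN genes were lower. Among leucine zipper factors, JDP2, which pairs with JUN proteins and represses AP-1 sites, rose from 3.00 ± 0.225 to 4.49 ± 0.371 CPM. BATF3, another JUN partner, rose from 2.83 ± 0.335 to 3.93 ± 0.215 CPM.

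AP-1 targets that are secreted signals or proteases also moved both ways. The chemokine gene CXCL8 fell from 9.69 ± 0.829 to 7.12 ± 0.0915 CPM and the growth factor gene HBEGF from 6.44 ± 0.250 to 5.10 ± 0.483 CPM. The chemokine gene CCL2 rose from a very low level, 0.176 ± 0.0322 to 1.15 ± 0.0527 CPM, and the protease gene MMP2 rose from 128 ± 1.99 to 171 ± 1.5 CPM. In each of these 10 genes the 2 groups did not overlap (67.7% of all tested genes), and each passed in edgeR. IER2, IER5, SOCS3, CXCL8, HBEGF and BATF3 did not pass against a minimum log2 fold change of 0.32.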
